A study of Arabidopsis thaliana with 24 samples.

Results

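The 33 genes described here encode enzymes and small regulators of carbon fixation and of the pathway that salvages its side product: 17 act in the Calvin cycle (the Rubisco small subunit genes are not among them) and 16 in photorespiration. They were chosen by locus, and 32 of them had at least 1 listed start site, of 22582 annotated genes with one in the whole series. In the Calvin cycle, chloroplast enzymes fix CO2 with Rubisco, reduce the product to triose phosphate and regenerate the acceptor sugar. When Rubisco takes oxygen instead, photorespiration recovers the resulting phosphoglycolate through reactions in chloroplast, peroxisome and mitochondrion, where the glycine decarboxylase complex releases CO2 and ammonia. Both pathways are active in green tissue in the light, and transcripts of many of their enzymes are among the abundant ones in leaves.

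The study mapped transcription start sites by CAGE, which captures capped RNA ends and sequences a tag from each, in wild-type Arabidopsis thaliana of 4 accessions: Altenb-2, Kly-1, Vash-1, Shigu-2. Aerial parts of seedlings aged 2 weeks were sampled, either as controls at 22 °C in continuous light of 40 µE per square metre and second, or after 24 h at 4 °C in 140 µE. The labels name 24 libraries, 3 for each accession and treatment. The deposited values are, however, 1 pooled set of start site clusters per accession, identified by the initial of the cluster name, with no library or treatment column. No response to cold and light could therefore be computed, there is no replicate spread and no p-value, and accession cannot be told apart from the mix of treatments behind each set.

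Levels are CPM, tags scaled to a fixed total of tags outside the nuclear rRNA repeats, summed over the clusters of a gene. The sets held 22462179 (Altenb-2) to 37230794 (Shigu-2) such tags. A capped RNA gives 1 tag whatever its length, so levels were set against each other between genes without division by length. Levels also include clusters inside the gene: 3.44% of member tags lay past the first start codon, against 6.28% over protein-coding genes. Without GAPA-2, whose main start lies past its first start codon but before that of another transcript, the member share was 2.03%. Values in fours below follow the order Altenb-2, Kly-1, Shigu-2, then Vash-1. Intervals are exact binomial 95% intervals and cover counting error only. Leaf markers (4 genes, all listed) summed to 43300 to 58740 CPM, and root markers (5 genes, 2 to 4 of them at 0 in a set) to 1.16 to 2.53 CPM, so the sets carried the markers of the labelled tissue. A list of 7 cold- and light-responsive genes, all listed in every set, summed to 5709, 7649, 13760 and 6079 CPM and was highest in Shigu-2.

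Start sites of 6 members carry the positional results, and their sequences are shown first. They are RefSeq sequences of build TAIR10.1, with 24 bases before and 5 after the start base. Capitals mark the base before the start and the start base itself, a step that in plants is often a pyrimidine followed by a purine. FBA2 and RCA are the most abundant members, and the other 4 had more than 1 start. Positions with a plus sign are bp from the annotated gene start.
FBA2 (+268, chr4:18165735-18165764, minus strand): ccaaaagagggaggagtgagagaTAagggt
RCA (+270, chr2:16573417-16573446, minus strand): tcttgctcacaccaacatctctcTAagctt
SBPASE (+282, chr3:20709552-20709581, plus strand): tccacttgtgttcttgattatttTGtcttc
SBPASE (+175, chr3:20709445-20709474, plus strand): cctcggtctctctctcgcccaatTGcccat
GLDT (+297, chr1:4001386-4001415, plus strand): acacttactactacatagtagttTGaggaa
GLDT (+249, chr1:4001338-4001367, plus strand): tttgccattgatagcaacaaaatCAtcaat
GLDT (+674, chr1:4001763-4001792, plus strand): attttgagtgttcttgtatcaaaCTtgttg
GLYK (+155, chr1:30217247-30217276, plus strand): atcaagttggtcttcttcttcctCGttgct
GLYK (+445, chr1:30217537-30217566, plus strand): ccaagctttctccaattcgaaccCAttcct
GLU1 (+245, chr5:1130006-1130035, plus strand): acgcctctcattttttttcatttCAatggc
GLU1 (+65, chr5:1129826-1129855, plus strand): cgaattttgtgtaaacgaataaaTAcgaaa
Of these 11 starts, 10 are pyrimidine-purine steps, and the exception is GLDT +674, where the step is CT.

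The levels of the 2 pathways were close between accessions. Calvin cycle members summed to 22110, 22280, 19840 and 24630 CPM, or 1.98 to 2.46% of the tags outside the rRNA repeats. Photorespiratory members summed to 6417, 6454, 6529 and 6852 CPM. Between the highest and the lowest set, 1 of 32 members spanned 2-fold, the T-protein gene GLDT, against 23.5% of the 14774 genes whose highest set reached 5 CPM. All 32 members reached 100 CPM in at least 1 set, and among all genes that did so the share was 21.9%. The median span was 0.39 on the log2 scale for the members, 0.51 for the Calvin cycle and 0.36 for photorespiration, against 0.62 over all genes at 5 CPM and 0.59 at 100 CPM. At 1.5-fold, 8 members spanned that far (7 of the Calvin cycle and 1 of photorespiration), against 53.2% of all genes.

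**Figure D1:**
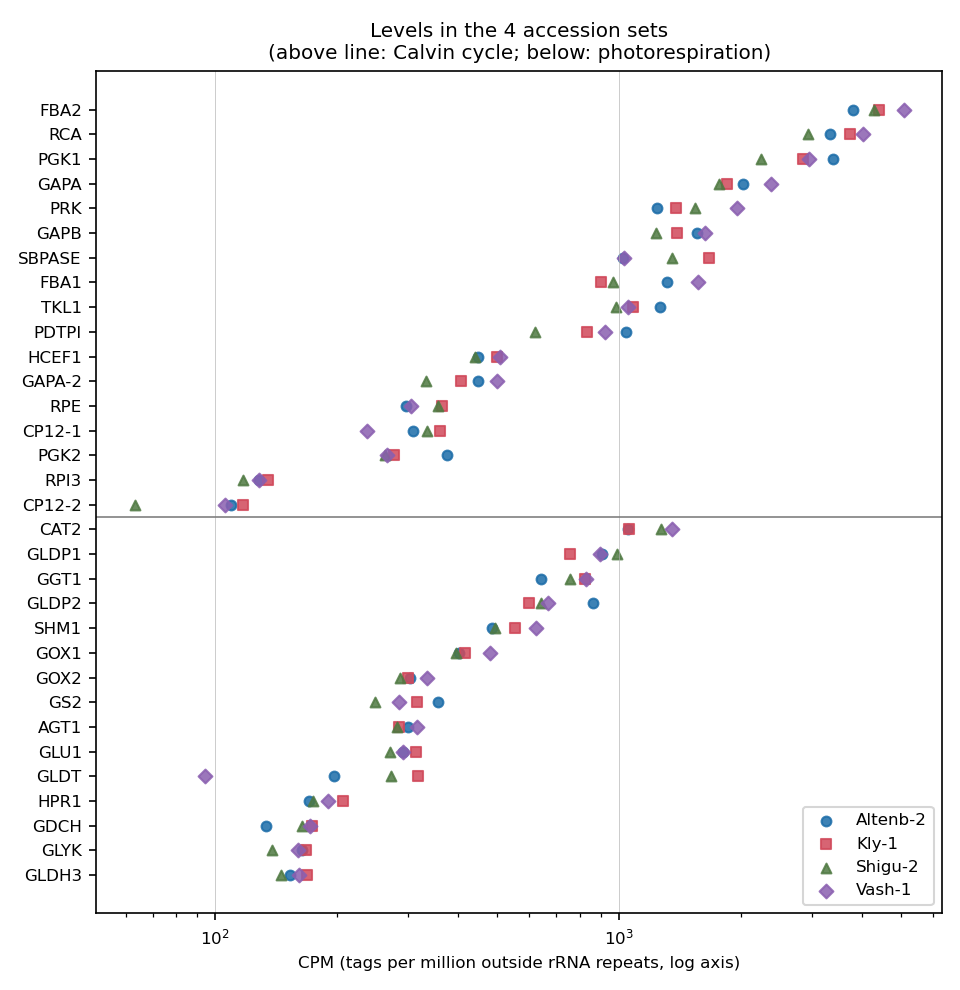
Level of each of the 32 listed members in CPM on a log axis, 1 point per accession set, Calvin cycle above the line and photorespiration below it. Most genes have their 4 points close together, and GLDT stands out with Vash-1 at 94.5 CPM against 197 to 317 CPM in the other sets.

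**Figure D2:**
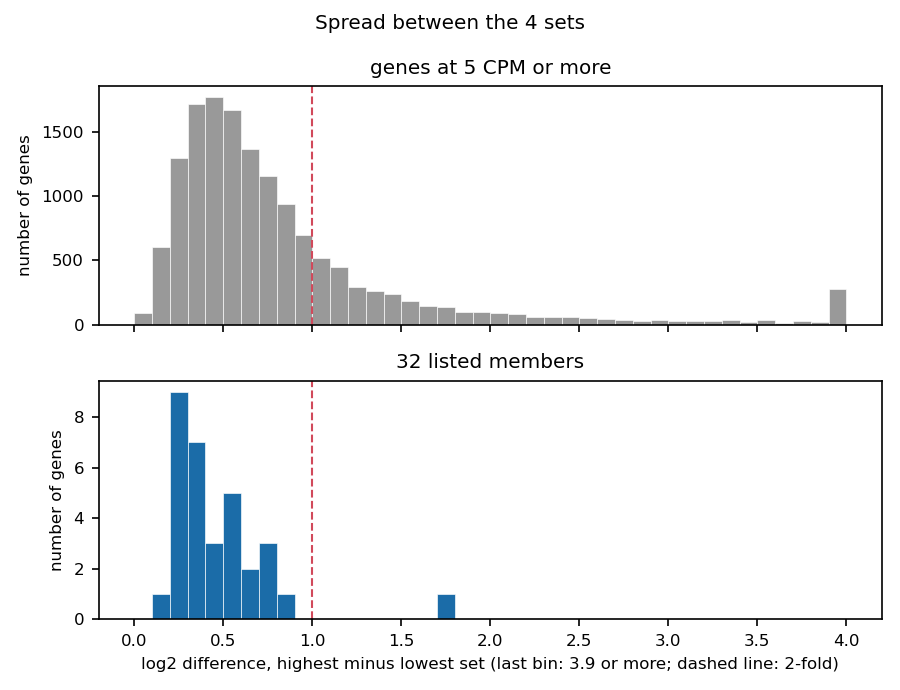
Number of genes by the log2 difference between their highest and lowest set, for the 14774 genes at 5 CPM or more (top) and the 32 listed members (bottom), with the dashed line at 2-fold and the last bin holding all larger values. The members lie at the low end, with GLDT at 1.74.

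Genes of carbon reduction and of Rubisco activation were among the most abundant members, and most were lowest in Shigu-2. Rubisco activase, RCA (AT2G39730), which frees Rubisco of inhibitory sugar phosphates, had 3331, 3740, 2935 and 4025 CPM. The plastid phosphoglycerate kinase gene PGK1 (AT3G12780) had 3390, 2862, 2253 and 2950 CPM. Shigu-2 was the lowest set for both genes. PGK2 (AT1G56190), another plastid phosphoglycerate kinase gene, had 375, 277, 263 and 267 CPM, with Altenb-2 above the other 3 sets. The glyceraldehyde-3-phosphate dehydrogenase genes GAPA (AT3G26650), GAPA-2 (AT1G12900) and GAPB (AT1G42970), which reduce the phosphorylated acid with NADPH, were all lowest in Shigu-2 and highest in Vash-1. GAPA had 2025, 1849, 1768 and 2377 CPM. GAPB had 1564, 1388, 1234 and 1628 CPM, and GAPA-2 448, 407, 333 and 498 CPM.

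Triose phosphate is interconverted by the plastid triosephosphate isomerase, PDTPI (AT2G21170, TIM in RefSeq), at 1042, 833, 620 and 922 CPM, with Shigu-2 lowest. Its highest to lowest ratio, Altenb-2 over Shigu-2, was 1.68 (1.65 to 1.71). The aldolases FBA1 (AT2G21330) and FBA2 (AT4G38970) join trioses to hexose and heptose phosphates. FBA2 was the most abundant member of all, at 3801, 4401, 4281 and 5064 CPM, rank 17 of 14774 genes by mean level. FBA1 had 1317, 905, 967 and 1569 CPM. Its sets split into Altenb-2 and Vash-1 above and Kly-1 and Shigu-2 below, and the ratio of Vash-1 to Kly-1 was 1.73 (1.71 to 1.76).

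The regenerating enzymes moved differently among themselves. Sedoheptulose bisphosphatase, SBPASE (AT3G55800), which commits sugar phosphates to regeneration, had 1025, 1671, 1349 and 1029 CPM. Here Kly-1 and Shigu-2 were above Altenb-2 and Vash-1, the other way round from FBA1, and the ratio of Kly-1 to Altenb-2 was 1.63 (1.61 to 1.66). Phosphoribulokinase, PRK (AT1G32060), which makes the CO2 acceptor, had 1239, 1383, 1545 and 1964 CPM and was 1.59-fold (1.56 to 1.61) higher in Vash-1 than in Altenb-2. Fructose bisphosphatase, HCEF1 (AT3G54050), had 448, 497, 440 and 507 CPM. Transketolase, TKL1 (AT3G60750), had 1266, 1085, 983 and 1050 CPM. The isomerising enzymes were close to even, with ribulose phosphate epimerase, RPE (AT5G61410), at 296 to 365 CPM and ribose phosphate isomerase, RPI3 (AT3G04790, EMB3119 in RefSeq), at 117 to 135 CPM.

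CP12 proteins tie GAPDH and PRK into an inactive complex in the dark. CP12-2 (AT3G62410) had the widest span in the Calvin cycle, at 109.5, 117, 63.3 and 106 CPM. Shigu-2 was low and the other 3 sets were close, and Kly-1 over Shigu-2 was 1.86 (1.76 to 1.96). CP12-1 (AT2G47400) had 308, 361, 335 and 237 CPM and was lowest in Vash-1 instead. CP12-1 tags were thus 2.25 times those of CP12-2 in Vash-1 and 5.30 times in Shigu-2.

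In photorespiration, the peroxisomal oxidation step was even between sets. The glycolate oxidase genes GOX1 (AT3G14420) and GOX2 (AT3G14415) had 394 to 478 CPM and 287 to 335 CPM. The catalase CAT2 (AT4G35090), which removes the hydrogen peroxide that the oxidases make, was the most abundant photorespiratory member, at 1051, 1058, 1271 and 1354 CPM. The aminotransferases GGT1 (AT1G23310), with 640 to 829 CPM, and AGT1 (AT2G13360, AGT in RefSeq), with 282 to 316 CPM, convert glyoxylate to glycine. AGT1 had the narrowest span of all members, 0.16 on the log2 scale.

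Glycine decarboxylase holds P-, H-, T- and L-proteins, and its T-protein gene was the member with the widest span. GLDT (AT1G11860, chromosome 1, 4001113 to 4003748, plus strand) encodes the T-protein, an aminomethyltransferase. It had 197, 317, 273 and 94.5 CPM, from 4427, 9303, 10165 and 2319 tags. Vash-1 was the lowest set, 3.36-fold (3.21 to 3.52) below Kly-1. Against the mean of the other 3 sets, GLDT lay −1.44 in Vash-1 on the log2 scale. Of all genes, 4.24% lay 2-fold lower in Vash-1 by this measure, and GLDT was the one member to do so. The P-protein genes did not follow: GLDP1 (AT4G33010) had 907, 755, 989 and 897 CPM and GLDP2 (AT2G26080) 860, 598, 642 and 667 CPM, with Altenb-2 highest for GLDP2. The H-protein genes among the members are GDCH (AT2G35370) and GLDH3 (AT1G32470). They had 134 to 174 CPM and 145 to 169 CPM, with Vash-1 inside the range of the other sets for both. The L-protein genes and another H-protein gene are not members and were looked up after the value of GLDT was seen. The L-protein genes were lowest in Vash-1 but by less. There mtLPD1 had 139 CPM, against 167 to 168 CPM elsewhere, and mtLPD2 had 92.6 CPM, against 102 to 131 CPM. The H-protein gene AT2G35120 was instead highest in Vash-1, at 9.44, 13.4, 12.8 and 18.4 CPM. Without Vash-1, the span of GLDT was 0.69 and no member spanned 2-fold.

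The later steps were narrow again. Serine hydroxymethyltransferase, SHM1 (AT4G37930), which forms serine from glycine, had 485, 554, 494 and 622 CPM. Hydroxypyruvate reductase, HPR1 (AT1G68010), had 171 to 207 CPM, and glycerate kinase, GLYK (AT1G80380), which returns glycerate to the chloroplast cycle, 138 to 168 CPM. The ammonia released is reassimilated by plastid glutamine synthetase, GS2 (AT5G35630), at 357, 316, 249 and 285 CPM, and ferredoxin-dependent glutamate synthase, GLU1 (AT5G04140), at 271 to 315 CPM. GS2 was lowest in Shigu-2 and highest in Altenb-2.

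Phosphoglycolate phosphatase, PGLP1B (AT5G36790), the enzyme that opens the pathway, was the 1 member with no listed cluster in any set. A near-identical gene, PGLP1 (AT5G36700), was also unlisted in all 4 sets. Their coding sequences are identical at 1089 of 1089 bases, and 784 of 801 bases around their starts are equal. A cluster needs 5 tags to be listed, so each gene can hold unlisted clusters of up to 4 tags, or 0.107 to 0.178 CPM. The sources used here do not give how reads with several matches were counted, so whether the genes were silent cannot be read from these zeros. The other pairs of copies among the members were less alike, at 74.5 to 92.4% identity of aligned coding bases, and all of their genes were listed. The ratio within such a pair varied least for GOX1 over GOX2, at 1.32 to 1.43, and for GAPA over GAPA-2, at 4.52 to 5.30. It varied more for PGK1 over PGK2 (8.56 to 11.05), GDCH over GLDH3 (0.874 to 1.13) and GLDP1 over GLDP2 (1.055 to 1.54). The widest ranges were those of FBA1 over FBA2 (0.2056 to 0.3465) and CP12-1 over CP12-2 (2.25 to 5.30).

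Across the members the order of the sets was uneven. Shigu-2 was the lowest set for 18 of 32 members (11 of 17 in the Calvin cycle, 7 of 15 in photorespiration), while 16.4% of all genes, and 24.1% of those at 100 CPM, were lowest there. Vash-1 was highest for 14 members, Kly-1 for 11, Altenb-2 for 6 and Shigu-2 for 1, against 19.2, 21.3, 18 and 41.5% of all genes. With median-of-ratios scaling these counts were, in the same order, 14, 6, 12 and 0, against 22.6, 21.9, 29.1 and 26.3% of all genes. With rRNA tags kept they were 4, 17, 3 and 8, against 9.22, 23.0, 6.42 and 61.4%. The median log2 difference of a set from the mean of the other 3 was 0.01, 0.04, −0.14 and 0.13 over the members, against −0.13, 0.04, 0.16 and −0.05 over all genes. These signs depend on scaling, which moves the median of all genes: in Altenb-2 it lay at 0.01 with median-of-ratios scaling and at −0.36 with rRNA tags kept. Relative to the median of all genes, the members lay at 0.14, −0.00, −0.30 and 0.18. With median-of-ratios scaling these values were 0.14, −0.00, −0.30 and 0.19, and with rRNA tags kept 0.12, 0.01, −0.28 and 0.17. In Shigu-2, 28 of 32 members lay below the median of all genes, 29 with median-of-ratios scaling and 26 with rRNA tags kept. A scaling factor moves all genes of a set alike, so these values and counts were bound to stay close. Their agreement is no added support. The count of members lowest in Shigu-2 was 21 and 4 under these scalings, where 26.5 and 6.82% of all genes were lowest there. The sum of the leaf markers was also lowest in Shigu-2 (3 of the 4 genes; RBCS1A was lowest in Altenb-2), and each of the 7 cold- and light-responsive genes was highest there; their part in the members' levels was not tested.

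**Figure D3:**
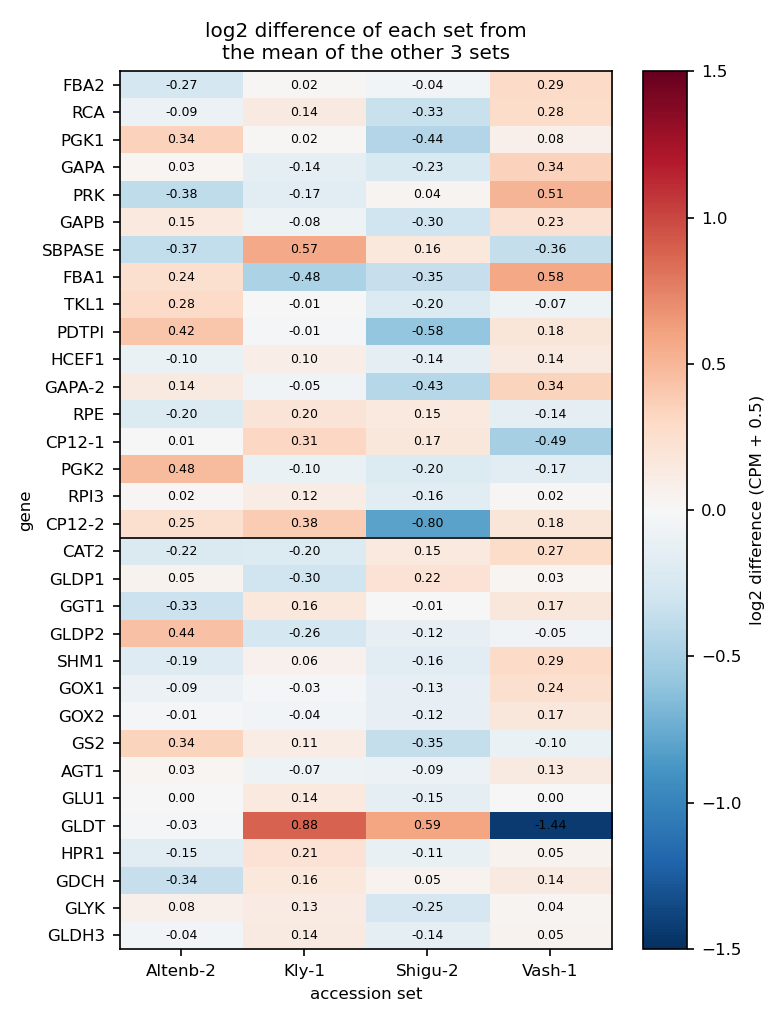
Log2 difference of each member in each set from the mean of the other 3 sets, on log2(CPM + 0.5), Calvin cycle above the line. GLDT in Vash-1 at −1.44 is the one value past 2-fold, and CP12-2 in Shigu-2 at −0.80 is the next lowest.

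Related genes outside the members were near the share of all genes. Of 29 other genes of these pathways (paralogues, Rubisco small subunits and transporters), 26 reached 5 CPM, and 5 of these (19.2%) spanned 2-fold, with a median span of 0.64, against 23.5% of all genes. They were the small subunit genes RBCS1B, RBCS2B and RBCS3B, the plastid aldolase PDE345 and the serine hydroxymethyltransferase SHM2. RBCS1B had 775, 1598, 12.3 and 20.7 CPM; it neighbours close copies of itself, so tags may have been shared between them. SHM2, a paralogue of SHM1, had 16.7, 17.8, 22.3 and 5.67 CPM and, like GLDT, was lowest in Vash-1. Of 12 cytosolic counterparts, 2 (16.7%) spanned 2-fold, the glutamine synthetase GSR 1 and the dehydrogenase GAPC2, with a median span of 0.73. GAPC2 had 248, 247, 546 and 264 CPM and was highest in Shigu-2, where the plastid genes GAPA, GAPA-2 and GAPB were lowest.

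The main peak, the base with most tags in the strongest cluster, lay at the same base in all 4 sets for 26 of 32 members (15 of 17 and 11 of 15), against 60.6% of all genes at 5 CPM that were listed in all sets and 74.7% of those at 100 CPM. Allowing 5 bp, it was 28 members, and no share of all genes is given for that tolerance. The main cluster held at least 80% of the tags in every set in 29 members, against 58.5% of all genes and 88.6% of those at 100 CPM. The counts of 26 and 29 members were thus near the shares of genes as abundant as the members. All 32 main peaks lay inside the annotated gene, a median of 228 bp past its start, and the median distance from peak to start codon along the transcript, the leader, was 54 nt. Leaders were shortest in HCEF1, at 12 nt, and in GLU1, where the main start lies 1 nt before the start codon, as its sequence above shows. The 6 members whose peak moved were CP12-1 (16 bp), GDCH (10 bp), SHM1 (6 bp), GAPA-2 (3 bp), GOX1 (2 bp) and GLDT (48 bp).

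GLDT, the member with the widest span, also had the largest shift of its main peak. The base at +297 had 68.2, 163 and 141 CPM in Altenb-2, Kly-1 and Shigu-2. In Vash-1 the same region formed a cluster of 66.2 CPM with its peak at +249, 18.4 CPM, so the base at +297 had no more than that. Vash-1 also had a start at +674, with 482 tags or 19.6 CPM, of which 96.5% fell on 1 base. No listed cluster covered that base in the other sets. It lies in an annotated intron, 11 bp before an exon, and 1 of these 11 bases equals the base at the matching place at the end of the preceding exon. Tags past the first annotated start codon made up 3.39, 2.66 and 2.97% of GLDT in the first 3 sets and 27.6% (25.8 to 29.5%) in Vash-1. The base before +674 and that base are not a pyrimidine-purine step, unlike those at +297 and +249.

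**Figure D4:**
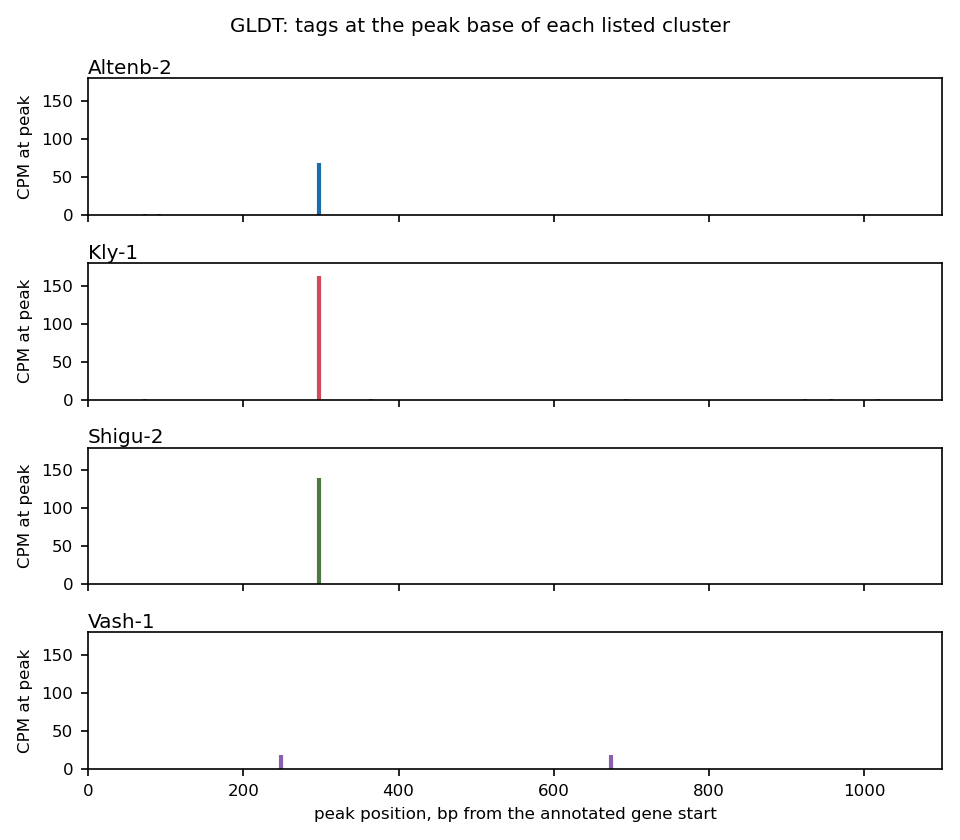
Tags at the peak base of each listed GLDT cluster in CPM, by distance from the annotated gene start in bp, for the 4 sets. Altenb-2, Kly-1 and Shigu-2 show a single tall start at +297, and Vash-1 shows starts of 18.4 CPM at +249 and 18.95 CPM at +674.

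GLYK, GAPA-2 and GLU1 also had 10% or more of their tags past the first start codon in some set, making 4 members with GLDT, against 15.7% of protein-coding genes at 5 CPM. In GLYK a second start at +445 lay in coding sequence, 229 bp past the first start codon and 104 nt before a later annotated one. Its peak base had 10.8, 7.95, 6.18 and 11.0 CPM, against 33.9, 38.4, 31.9 and 32.5 CPM at the main start at +155. Altenb-2 and Vash-1 were higher at the second start, while the main start was nearly even. Tags past the first start codon made up 10.7% (9.70 to 11.7%) of GLYK in Altenb-2, 8.73% in Kly-1, 7.01% (6.33 to 7.74%) in Shigu-2 and 11.4% in Vash-1. GAPA-2 had over 99.8% of its tags past the most upstream annotated start codon; the main start at +143 lies 28 nt before the start codon of another annotated transcript. Tags were placed by the peak of their cluster; the main cluster of Kly-1 crosses the first start codon, and counting only clusters wholly past it leaves 1.33% there. GLU1 had 6.57, 9.57, 11.5 and 10.1% past its start codon, which follows its main start directly. Its main cluster, 103 to 224 bp wide, was counted as before the codon because its peak lies there. Any of its tags past the codon are missing from these values. They are therefore lower limits, and their order between sets cannot be read.

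SBPASE and GLU1 each used a pair of starts before the start codon. In SBPASE the main start at +282 had 444, 1035, 799 and 436 CPM at its peak base, and the start at +175 had 35.5 CPM (Altenb-2) and 31.4 CPM (Vash-1). In Kly-1 and Shigu-2 the base at +175 lay in a cluster whose peak was at +189, and it had at most 6.62 and 7.66 CPM. Summed over the whole upstream cluster, the sets were closer, at 88.15, 49.03, 49.82 and 84.73 CPM. The upstream cluster was thus higher in the sets where the main start was lower. The wider gap at +175 itself goes with the move of the peak inside the cluster. In GLU1 the start at +65 had 24.7, 20.1, 24.0 and 21.9 CPM and that at +245 62.5, 69.2, 52.6 and 64.3 CPM. The share of the cluster at +65 ranged from 15.6 to 39.4%, but its width also ranged from 34 to 172 bp between sets, while its peak base was nearly even. PGK2 had starts at +101 and +228 in every set, with 28.8 to 38.6% of its tags in the cluster at +101 and 61.1 to 65.1% at +228. The 28.8% is that of Altenb-2, where a separate cluster at +60 held 5.97% of the tags. In the other sets that base lay inside the cluster at +101, so the range partly reflects how clusters were split.

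**Figure D5:**
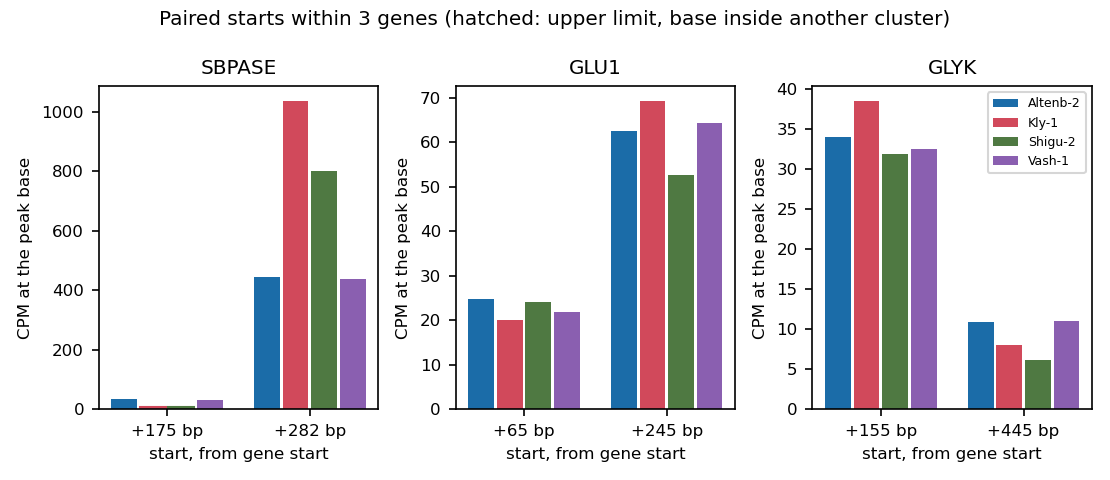
Tags at the peak base of 2 starts in SBPASE, GLU1 and GLYK, in CPM, for the 4 sets, with hatched bars for upper limits where the base lay inside another cluster. SBPASE at +282 is highest in Kly-1 at 1035 CPM, and GLYK at +445 is highest in Altenb-2 and Vash-1.

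Letters upstream of the starts were counted in the reference. Shares of all genes here are over those at 5 CPM listed in all sets, not over genes as abundant as the members. TATAAA or TATATA on the gene strand, starting 40 to 25 bp before the main peak, was present in 8 of 32 members, against 22.1% of all genes, and in none of the members in a window 100 bp further upstream (3.48% of all genes). The main peak here is the base most frequent over the sets. FBA2 has the motif at −31 and RCA at −40, just outside the sequences printed above. The main starts of SBPASE, GLDT (+297), GLYK and GLU1 do not have it. The GLDT start at +249, the main peak in Vash-1, has TATATA at −38. A run of 8 pyrimidines within 60 bp was present in 22 members (68.8%), against 45.2% of all genes, and the pyrimidine-purine step in 30, against 90.5%. Within 300 bp on both strands, GATAAG, the I-box core, was found at 9 of 17 Calvin cycle and 2 of 15 photorespiratory members, against 16.6% of all genes. The G-box CACGTG was found at 6 and 1, against 11.1%. CCGAC, the core of a cold-response element, was found at 0 and 4, against 18.6%; the 4 were GLDP1, GLDH3, HPR1 and GLYK. The evening element AAATATCT was found at 1 member and AAAAATCT at 5, against 6.56 and 8.48% of all genes.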

How the data were processed

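CAGE tags were mapped by the authors using the aligner STAR, version 2.7.9a per the submitters' processing notes. Genome build and clustering: not given in the sources used here. Accession sequences were not used here. The deposited table holds whole-number tag counts per cluster and per peak base, not normalized, and a deposited fraction, peak tags divided by the tags of their cluster. Of 316778 peaks outside the rRNA repeats, 70.8% lay on a pyrimidine-purine step in TAIR10.1, against 20.6% at 50 bp upstream, so coordinates were used with that build.

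Clusters on the gene strand with peaks from 500 bp upstream of the gene start to its end were summed per set (Python 3.11.15, pandas 2.3.3). Clusters within 5000 bp of rRNA genes, 40.8 to 54.6% of tags, were set aside. Differences use log2(CPM + 0.5), which understates changes of low genes, over genes whose highest set reached 5 CPM. Of the clusters of members, 10 (59 tags) also lay in the window of another gene. With 1 pooled value per set, the tests planned for replicated counts were not possible. Members and lists were chosen with earlier results of these data known. Values in full were given to the widest and the most abundant members, those with starts past the start codon, and related copies. Scaling, window, pseudocount, minimum level, fold and sets left out were varied.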

Additional observations from a re-analysis of the deposited data

Results flagged for a closer look

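Antisense starts lie outside the sense clusters that the levels use. They were listed at 13 positions in 9 members, and 1 of them passed 1 CPM. The share of all genes with an antisense start is not given here, so whether these counts are unusual cannot be told. Opposite GLU1, at 152 bp from the gene start (chromosome 5, position 1129937), Vash-1 had a cluster 2 bp wide of 137 tags, or 5.584 CPM, with 99.3% of them on 1 base, and the other 3 sets had no listed cluster there. It stood out among the members only, where the other antisense positions reached at most 0.445 CPM. The position lies between the sense starts of GLU1 at +65 and +245, which had 21.9 and 64.3 CPM at their peak bases in Vash-1.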

How the results depend on the processing

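Of 109 values recomputed under alternatives, 83 stayed within the tolerance, 23 moved, 1 no longer passed 2-fold, 2 newly passed it, and 0 reversed a call. The tolerance was 1.5 times for a count, the counting error for a median, and for the span of a gene only its side of 2-fold, so spans inside it still changed: without Shigu-2, CP12-2 went from 0.89 to 0.15 and PDTPI from 0.75 to 0.32, without Kly-1 SBPASE went from 0.71 to 0.4, and GLDT rose from 1.74 to 2.17 with the window ended at the start codon. Genes spanning 2-fold were 28.4% at a minimum of 1 CPM. Members spanning 2-fold numbered 1, and 2 with median-of-ratios scaling (CP12-2 at a span of 1.01), 2 with rRNA tags kept (SBPASE at 1.0), 8 at 1.5-fold and 0 without Vash-1, where GLDT had 0.69. Their median span of 0.39 became 0.51 with median-of-ratios scaling, 0.44 with rRNA tags kept, and 0.31, 0.29 and 0.33 without Altenb-2, Shigu-2 and Vash-1. The share and median span of all genes are not given for these scalings and sets left out. The member values there thus have no like comparison. Members past 2-fold in one set numbered 1, and 2 with rRNA tags kept, 2 with the window ended at the start codon and 4 at 1.5-fold. In the main setting, 406 to 672 of the 14774 genes lay 2-fold lower in a given set, and 405 to 577 lay 2-fold higher. Shares of all genes are not given for the alternatives, so those member counts cannot be set against them. Medians per set were 0.15, 0.0, −0.3 and 0.18 with median-of-ratios scaling and −0.24, 0.19, 0.13 and −0.05 with rRNA tags kept, in the order above. The median was 0.04 in Altenb-2 with the window ended at the start codon, and 0.08 in Kly-1 and 0.1 in Vash-1 without near-identical copies. The cause of these shifts was not tested. The alternatives that leave out a set, raise the minimum to 100 CPM or use peak bases were added after seeing the data. No paired analysis was possible because the table has no replicate column.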
